A study of Mus musculus with 8 samples.

Results

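The genes described here encode 10 receptors of peptide transmitters: the neuromedin U receptor Nmur2, the receptor of the RF-amide peptide QRFP (Qrfpr), the thyrotropin-releasing hormone receptor Trhr, the tachykinin receptors Tacr1 and Tacr3, the neuropeptide Y receptor Npy1r, and the 4 members of the opioid receptor family, Oprm1, Oprk1, Oprd1 and Oprl1. They were taken by symbol from the 19787 genes of a matrix of unique molecular identifiers (UMIs, one per captured RNA molecule), and all 10 were found there. All are G-protein-coupled receptors. Nmur2, Trhr, Tacr1, Tacr3 and Qrfpr are known for coupling to Gq, which releases calcium and excites neurons, whereas Npy1r and the opioid receptors couple to Gi/o, which opens potassium channels, closes calcium channels and lowers transmitter release. In the dorsal horn of the spinal cord these receptors are known for pain and itch: Tacr1 receives substance P on projection neurons and other lamina I cells, Npy1r receives neuropeptide Y from inhibitory neurons, and the mu opioid receptor Oprm1 is the target of morphine.

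The nuclei, from the spinal cord (low thoracic level) of C57BL/6 wild type mice, were sequenced with 10x v3 chemistry in 8 libraries. In experiment 1, nuclei of uninjured mice were sorted into traced (GFP-positive, 2 libraries, neurons with axons to the lumbar cord) and untraced (2 libraries) nuclei, in experiment 2 there were 2 hemisection libraries and 1 uninjured library, and in experiment 3 there was 1 library of traced, regenerating neurons after injury. The titles number the libraries of experiment 1, and the numbers were read as mice. The labels do not say whether any library came from separate or pooled animals. The nuclei of both hemisection libraries carry names with 1 shared prefix, as do those of traced and untraced libraries of the same number. The 2 hemisection libraries may therefore not be separate animals. The p-values may thus measure the spread between these libraries only. The labels give no age, sex or time after injury.

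The authors annotated 4076 of 12447 nuclei as neurons, in 28 subtypes, and the receptors were followed in those annotations. The libraries held 25 to 2148 neurons. The median depth was 5767 to 16489.5 UMIs per neuron in 7 libraries and 488 UMIs in the regenerating library, whose neurons gave 135012 UMIs in all. The 4 measured neuron markers summed to 7636 to 13693 counts per 1000000 UMIs (CPM) in the neurons of every library. Oligodendrocyte markers in those neurons summed to 687 CPM in the uninjured library of experiment 2 and to 68.9 to 236 CPM in the other 7. In the non-neuronal classes the neuron markers summed to 1450 to 2542 CPM in the uninjured library of experiment 2 and to 67.4 to 898 CPM in the other libraries. Libraries shared 4 barcode sequences. Names without a barcode sequence were borne by 4727 nuclei, namely the 238 regenerating neurons and all 4489 non-neuronal nuclei of the uninjured library of experiment 2, and the labels do not say whether these came from merged preparations. Every glial value of that library rests on such nuclei.

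Each receptor was first followed across neuron subtypes. A level is the mean CPM over libraries with at least 20 nuclei of the subtype, the regenerating library left out because of its depth, which gave 24 subtypes. Subtype names are the authors'. Their first letter was read as the position (D dorsal, M middle, V ventral), and E or I as the transmitter type (excitatory or inhibitory). The subtypes were clustered by the authors on these same libraries, and 3 are named after members, so their levels are a description with no test. Intervals on single libraries are exact Poisson limits at 95%, which cover counting error only. Levels are compared between subtypes for one gene, not between genes.

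**Figure D1:**
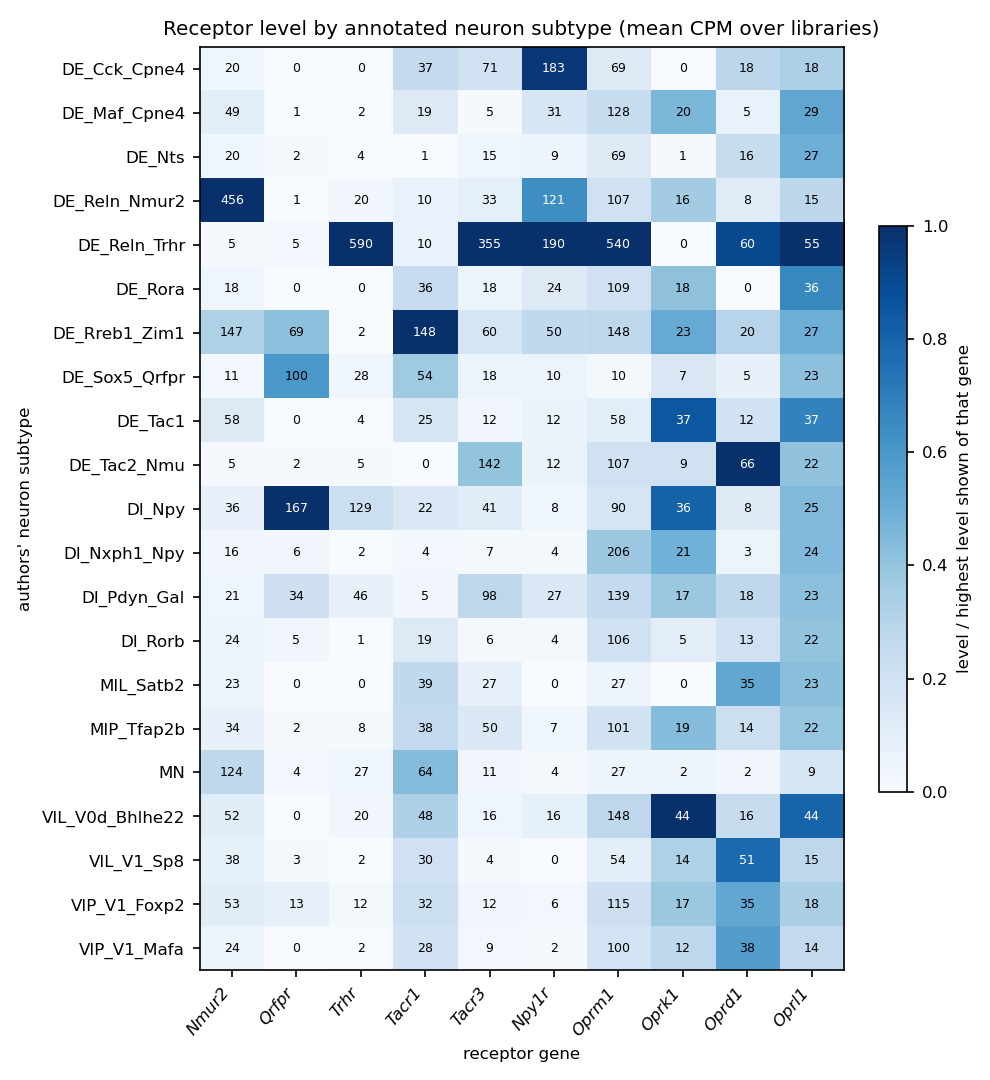
Level of each receptor (columns, CPM printed in the cells) in 21 of the 24 neuron subtypes (rows), as the mean over libraries with at least 20 nuclei; the shade is the level relative to the highest level shown of that gene. The row of DE_Reln_Trhr is dark for Trhr, Tacr3, Npy1r, Oprm1, Oprd1 and Oprl1, whereas Nmur2 peaks in DE_Reln_Nmur2 and Qrfpr in DI_Npy.

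Nmur2, the receptor for neuromedin U and neuromedin S in the nervous system (chr11:56024987-56041010, minus strand, GRCm38), was concentrated in DE_Reln_Nmur2. Its level there was 308 CPM in the uninjured library of experiment 2, 412 and 613 CPM in untraced 1 and 2, and 450 and 498 CPM in hemisection 1 and 2. All 5 libraries exceeded the 147 CPM of the next subtype, DE_Rreb1_Zim1, and the median over subtypes was 29.2 CPM. The 24 motor neurons (MN) of the uninjured library had 124 CPM (94.0 to 162), with a UMI in 20 of 24 nuclei. In DE_Tac2_Nmu, which had the highest level of the ligand gene Nmu in both libraries compared, Nmur2 was at 4.68 CPM, its lowest level.

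Qrfpr (chr3:36179424-36222313, minus strand), the receptor of a peptide best known from the hypothalamus, was unevenly spread within subtypes. Its highest level was not in DE_Sox5_Qrfpr, the subtype named after it (100 CPM, from 70.5 in untraced 1, 97.4 in hemisection 1 and 132 in the uninjured library), but in DI_Npy, with 167 CPM in the uninjured library. With fewer nuclei, DI_Npy had 563 CPM in untraced 1 (10 nuclei) and 164 CPM in hemisection 1 (11 nuclei). A few nuclei carried much of this: 27 of the 50 UMIs in untraced 1 and 13 of the 18 UMIs in hemisection 1 were in 1 nucleus each. Its ligand gene Qrfp gave 6 UMIs in all neurons of the 24 subtypes of the uninjured library and 0 in hemisection 1.

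Trhr (chr15:44196135-44235912, plus strand), the receptor for thyrotropin-releasing hormone, was at 590 CPM (488 to 707) in DE_Reln_Trhr of the uninjured library, the subtype that bears its name, and all 23 nuclei had a UMI. Hemisection 1 had 441 CPM there (354 to 543) over 18 nuclei. Untraced 1, with 6 nuclei and a UMI in each, had 1378 CPM (1093 to 1716), so its interval lay above both others. The next subtype was the inhibitory DI_Npy with 129 CPM, and the median over subtypes was 6.54 CPM. The ligand gene Trh had its highest level in another excitatory subtype, DE_Nts, with 207 CPM in the uninjured library and 50.5 CPM in hemisection 1.

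Tacr1, the substance P receptor (chr6:82402334-82560104, plus strand), was at 115 CPM in DE_Rreb1_Zim1 of the uninjured library and at 181 CPM in that of hemisection 1. MEP_Lmx1b_Satb1, which fell under the minimum of 20 nuclei, had 183 CPM in the uninjured library (17 nuclei) and 173 CPM in hemisection 1 (11 nuclei). The intervals of DE_Rreb1_Zim1 and MEP_Lmx1b_Satb1 overlapped in the uninjured library (78.5 to 162 and 123 to 261). They also overlapped in hemisection 1 (145 to 222 and 107 to 265), so the order of the pair is not resolved. The subtype with the highest Tacr1 level is not reported here. Tacr1 was at 0.381 CPM in DE_Tac2_Nmu, its lowest level. The ligand gene Tac1, which encodes substance P, was highest in DE_Sox5_Qrfpr in both libraries, where Tacr1 was at 54.4 CPM.

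Tacr3, the neurokinin B receptor (chr3:134829007-134934579, plus strand), was highest in DE_Reln_Trhr, at 355 CPM in the uninjured library (277 to 448, UMIs in 21 of 23 nuclei) and 411 CPM in hemisection 1 (327 to 510, 16 of 18 nuclei). DE_Tac2_Nmu followed with 130 CPM in the uninjured library, 110 in hemisection 1 and 186 in untraced 1. DE_Tac2_Nmu also had the highest level of Tac2, the gene of the ligand neurokinin B, with 6471 CPM in the uninjured library and 846 CPM in hemisection 1, so ligand and receptor RNA were both found in this subtype. The inhibitory subtype DI_Pdyn_Gal came next for Tacr3, with 90.2, 99.7 and 105 CPM in the uninjured, hemisection 1 and untraced 1 libraries.

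Npy1r, a receptor for neuropeptide Y (chr8:66697192-66706792, plus strand), was highest in dorsal excitatory subtypes. In DE_Reln_Trhr it was at 190 CPM in the uninjured library. There hemisection 1 had 115 CPM (73.1 to 173, 18 nuclei) and untraced 1 had 68.9 CPM (6 nuclei). DE_Cck_Cpne4 had 159 and 208 CPM in the uninjured and hemisection 1 libraries, and DE_Reln_Nmur2 had 50.2 to 174 CPM over 5 libraries. The intervals of DE_Reln_Trhr (134 to 261) and DE_Cck_Cpne4 (123 to 201) overlapped in the uninjured library, so their order is not resolved. With a minimum of 10 nuclei, or with counts summed over libraries, DE_Cck_Cpne4 ranked first. The median over subtypes was 9.69 CPM. Its ligand gene Npy was highest in the inhibitory DI_Npy, with 1619 CPM in the uninjured library, where Npy1r itself was at 8.21 CPM.

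Of the opioid receptors, Oprm1 (chr10:6758506-7038198, plus strand) was broad with 1 peak among the 24 subtypes with at least 20 nuclei. DE_Reln_Trhr had 540 CPM in the uninjured library (443 to 652) and 621 CPM in hemisection 1 (517 to 741), followed by DI_Nxph1_Npy with 216 CPM in the uninjured library, 143 in hemisection 1 and 258 in untraced 1. The median over subtypes was 100 CPM. DE_Sox5_Qrfpr stood at the low end, with 15.01, 8.86 and 5.42 CPM in the uninjured, hemisection 1 and untraced 1 libraries. The enkephalin precursor gene Penk, whose peptides act on mu and delta receptors, was highest in that same DE_Sox5_Qrfpr in the uninjured library (464 CPM) and in DE_Nts in hemisection 1 (425 CPM).

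The kappa receptor Oprk1 (chr1:5588466-5606131, plus strand) was low in all 24 subtypes, with its highest level, 44.0 CPM, from 11 UMIs in VIL_V0d_Bhlhe22. It was higher in CSF-N, read as neurons that contact the cerebrospinal fluid, which fell under the minimum of 20 nuclei. There Oprk1 was at 223 CPM in the uninjured library (146 to 327, UMIs in 15 of 16 nuclei), 335 CPM in hemisection 1 (224 to 481, 11 of 16 nuclei) and 257 CPM in untraced 1 (117 to 488, 4 of 6 nuclei), and 2 nuclei of untraced 2 had none. The lower limits of all 3 lay above the highest level of any of the 24 subtypes. Its ligand precursor gene Pdyn was highest in DI_Pdyn_Gal, with 148 CPM in the uninjured library and 23.7 CPM in hemisection 1.

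The delta receptor Oprd1 (chr4:132110726-132144486, minus strand) was highest in DE_Tac2_Nmu, with 60.5 CPM in the uninjured library, 61.0 in hemisection 1 and 77.3 in untraced 1. DE_Reln_Trhr had 60.0 CPM in the uninjured library. In the inhibitory ventral subtype VIL_V1_Sp8 it was at 87.4 CPM in the uninjured library (63.3 to 118) and 15.2 CPM in hemisection 1 (3.13 to 44.4). The nociceptin receptor Oprl1 (chr2:181715016-181720985, plus strand) showed the flattest profile of the family, from 8.89 CPM in motor neurons to 55.0 CPM in DE_Reln_Trhr with a median of 23.2 CPM. Its highest level was 2.37 times its median, against 90.3 times for Trhr, the most concentrated of the 10. Pnoc, the gene of its ligand nociceptin, was highest in DI_Pdyn_Gal, with 250 CPM in the uninjured library and 77.7 CPM in hemisection 1.

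Which subtype ranked first depended for some receptors on how subtypes were summarised. With a minimum of 10 nuclei per subtype and library, 6 of 10 receptors kept their top subtype. Summing counts over libraries kept 5 of 10. Nmur2, Qrfpr, Trhr, Tacr3 and Oprm1 kept theirs both ways.

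In the uninjured library of experiment 2, DE_Reln_Trhr held RNA of more of these receptors per nucleus than other subtypes with at least 20 nuclei. To compare nuclei of unequal depth, each nucleus of the uninjured library was thinned to 2000 UMIs, which left out 12 of its 2148 neurons. In this library all 23 nuclei of DE_Reln_Trhr had a UMI of at least 1 receptor, with a mean of 2.39 receptors per nucleus. The share with 3 or more was 47.8%. The count includes Trhr, after which the subtype is named, and was not repeated without it. Over all neurons of the library the mean was 0.618 receptors, 53.8% of nuclei had none and 2.62% had 3 or more. Oligodendrocytes, which should lack most of them, had a mean of 0.107 and 89.7% with none. Their median depth before thinning was 3346.5 UMIs, against 7738 UMIs in DE_Reln_Trhr.

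For single receptors in DE_Reln_Trhr, the thinned share of nuclei with a UMI was 69.6% for Oprm1 (exact binomial 95% limits 47.1% to 86.8%), 52.2% for Trhr, 47.8% for Tacr3 and 26.1% for Npy1r. The unthinned shares were 91.3%, 100%, 91.3% and 78.3%. Oligodendrocytes of the same library had 2.12%, 0.926%, 1.32% and 0.794% after thinning. Nmur2, Oprk1 and Qrfpr had none of 23 thinned nuclei there, which by the exact limit allows up to 14.8% of nuclei with a UMI. Which subtype had the highest share was the same at 1000 UMIs for 7 of the 10 receptors.

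**Figure D2:**
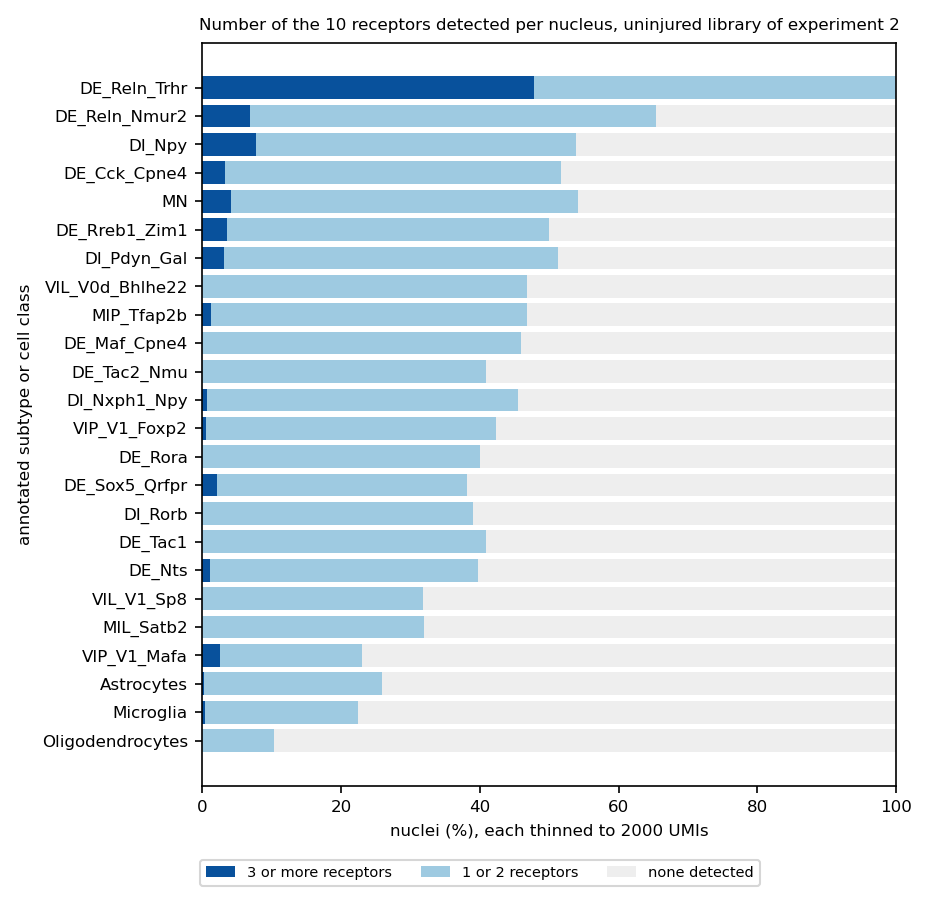
Share of nuclei (horizontal axis, %) with none, with 1 or 2, and with 3 or more of the 10 receptors detected after thinning to 2000 UMIs, by annotated subtype or class of the uninjured library of experiment 2. The dark part is 47.8% in DE_Reln_Trhr, and the grey part is 89.7% in oligodendrocytes.

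A pair of receptors were also found outside neurons. Nmur2 was at 92.7 CPM (80.9 to 106) in 594 astrocytes of the uninjured library of experiment 2 and at 103 CPM (74.1 to 139) in 103 astrocytes of untraced 1, and these levels were above those of the neurons of the same libraries (61.3 and 52.4 CPM). The share of astrocytes with a UMI was 28.1% and 32.0%, and 18.6% in each after thinning. Oligodendrocytes of the 2 libraries had 6.65 and 1.06 CPM, and 1.19% of those of the uninjured library had a UMI after thinning. The median depths in that library were 4047 UMIs per astrocyte and 3346.5 per oligodendrocyte. No hemisection library had 20 astrocytes, so astrocytes could not be compared after injury. The antisense gene Gm12239 overlaps Nmur2 and is not a gene of the matrix.

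Oprm1 was found in microglia, the resident macrophages of the cord. Its level was 138 CPM in untraced 1 (101 to 184, 149 nuclei), 37.9 CPM in untraced 2 (20.2 to 64.8, 198 nuclei) and 108 CPM in the uninjured library (88.7 to 130, 366 nuclei). After hemisection it was 24.2 CPM (2.92 to 87.2) from 2 UMIs in 32 nuclei of hemisection 1 and 16.8 CPM (10.4 to 25.7) from 21 UMIs in 593 nuclei of hemisection 2. Both hemisection levels were below those of all 3 uninjured libraries, but their intervals overlapped that of untraced 2. The share of all genes ordered this way in microglia is not given here. Oligodendrocytes of the uninjured library had 11.98 CPM, and those of untraced 1, untraced 2 and hemisection 2 had 2.13 to 2.86 CPM.

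The microglial difference was tested after these levels had been seen, with edgeR's quasi-likelihood test on counts summed over the microglia of 5 libraries and p-values adjusted over 8283 genes. Against the uninjured library of experiment 2, Oprm1 was lower after hemisection by a log2 difference of -2.58 ± 0.54 (SE, adjusted p = 0.000173), and lower than in the untraced libraries by -2.35 ± 0.52 (adjusted p = 0.000977). In these comparisons 20.4% and 7.68% of all genes were called. The call was lost with DESeq2 (adjusted p = 0.165 and 0.173), without hemisection 2 (0.226 and 0.446) and, against the untraced libraries, without untraced 1 (-1.10, adjusted p = 0.592). Of 5 listed microglia markers, P2ry12, known from resting microglia, was lower in both comparisons (-1.71 and -1.90, adjusted p = 4.48e-05 and 1.4e-06), as was Csf1r (-0.86 and -1.28, adjusted p = 0.0446 and 0.000597). C1qa was higher in the first (1.13, adjusted p = 0.00915) and Cx3cr1 lower in the second (-0.98, adjusted p = 0.0104). The 5 markers summed to 3985 and 5202 CPM in the hemisection and 5006 to 7634 CPM in the uninjured libraries, and the part of a changed microglial population in the Oprm1 result was not tested. Markers of other cells moved with the comparison to the uninjured library. Neuron markers in microglia summed to 2542 CPM there, to 326 and 88.8 CPM in hemisection 1 and 2 and to 114 and 219 CPM in untraced 1 and 2. Oligodendrocyte markers summed to 3305 CPM in the uninjured library, 193 and 495 CPM after hemisection and 1095 and 886 CPM in the untraced libraries. Neurons of the uninjured library held Oprm1 at 108 CPM, and the part of RNA from such cells in the result was not tested.

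Oprm1 shares its locus with Ipcef1 (chr10:6885796-7052478) and Gm10945, both on the opposite strand, and the counting was deposited with a strand setting not given in the sources used here. In microglia Ipcef1 was at 381 and 251 CPM in untraced 1 and 2, 145 CPM in the uninjured library, and 96.6 and 124 CPM in hemisection 1 and 2. Its difference after hemisection was -0.30 ± 0.39 against the uninjured library (adjusted p = 0.682) and -1.48 ± 0.34 against the untraced libraries (adjusted p = 0.0014). Of the 81 microglia with an Oprm1 UMI in the uninjured library, 38 also had one of Ipcef1, and 109 of all 366 microglia had one of Ipcef1. Both were found in 26 of 37 microglia with Oprm1 in untraced 1 (Ipcef1 in 79 of all 149), 6 of 12 in untraced 2 (63 of 198), 2 of 2 in hemisection 1 (7 of 32) and 14 of 19 in hemisection 2 (97 of 593). Whether reads of Ipcef1 were counted for Oprm1 was not tested. Among neuron subtypes of the uninjured library, Ipcef1 was also the gene whose profile was most like that of Oprm1, with its top in DE_Reln_Trhr at 105 CPM.

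**Figure D3:**
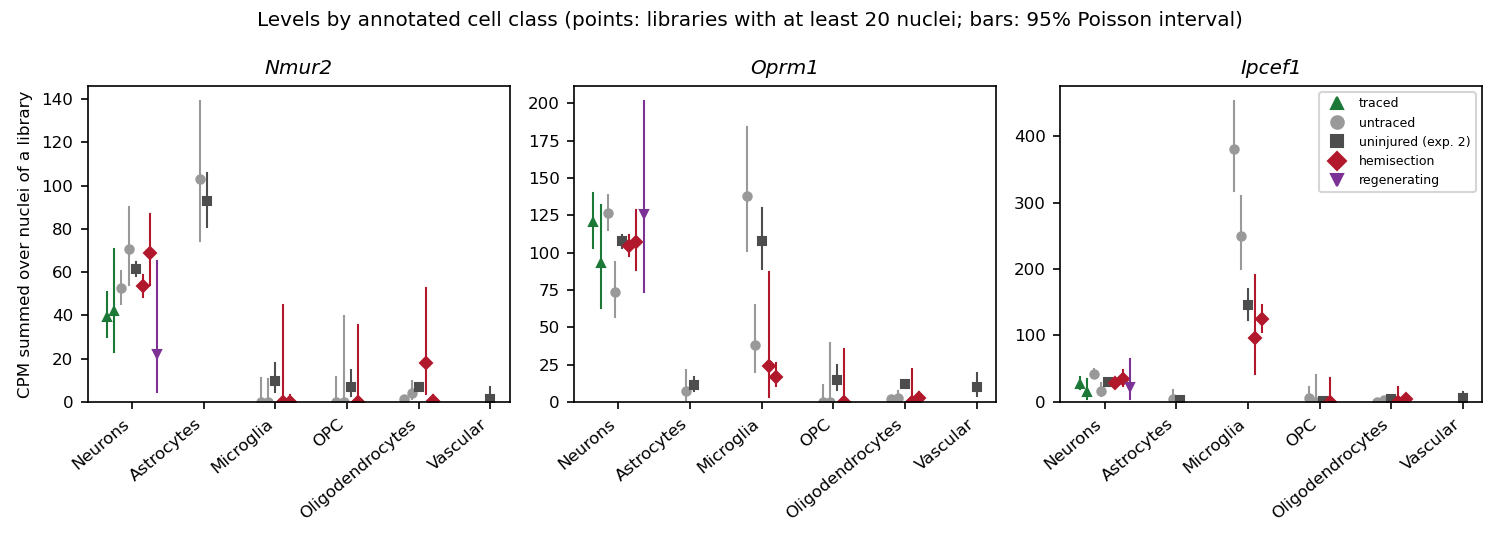
CPM of Nmur2, Oprm1 and the overlapping gene Ipcef1 (vertical axes, separate scales) by annotated class; each point is a library with at least 20 nuclei of the class and bars are exact 95% Poisson limits. Nmur2 is at 92.7 and 103 CPM in astrocytes, and Oprm1 in microglia is at 37.9 to 138 CPM in the 3 uninjured libraries and at 16.8 and 24.2 CPM after hemisection.

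The groups were then compared over neurons, with counts summed per library. These sums hold all subtypes, so fewer nuclei of a subtype and less RNA per nucleus cannot be told apart in them. All 10 receptors passed the filter on low counts, among 11601 genes tested, and 0 of 10 were called in any of 5 comparisons at an adjusted p under 0.05 (edgeR's quasi-likelihood test), nor with DESeq2. At an unadjusted p under 0.05 there were 2 of 10 between traced and untraced neurons (8.02% of all genes), 1 between hemisection and uninjured neurons of experiment 2 (19.1%) and 1 between hemisection and untraced neurons (3.86%). There were 0 between regenerating and traced neurons (14.7%) and 0 between the uninjured library and the untraced ones (14.8%).

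**Figure D4:**
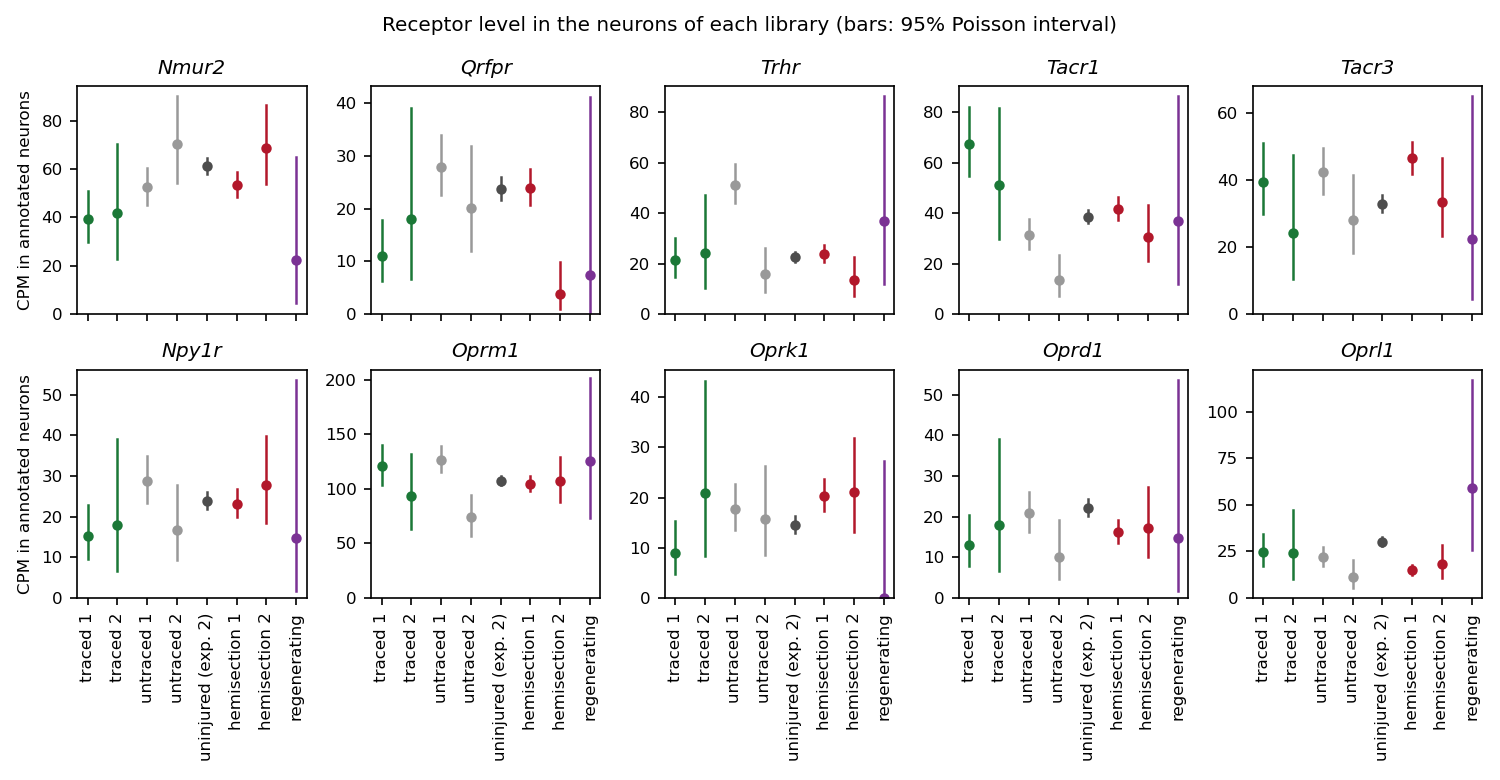
CPM of each receptor (vertical axes, separate scales) in the annotated neurons of each of the 8 libraries, with exact 95% Poisson limits as bars. Tacr1 is higher in both traced libraries (67.5 and 51.0 CPM) than in both untraced ones (31.4 and 13.4 CPM), and the bars of the regenerating library are wide.

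Traced and untraced neurons were compared to ask which receptors mark neurons that project to the lumbar cord. Tacr1 was at 67.5 and 51.0 CPM in traced 1 and 2 and at 31.4 and 13.4 CPM in untraced 1 and 2, a log2 difference of 1.27 ± 0.33 (SE), with an unadjusted p of 0.00143 and an adjusted p of 0.134. Both traced libraries were above both untraced ones, which held for 20.4% of all genes tested. Genes called made up 0.362% of those tested. A fit of the traced and untraced libraries alone, paired by number, called Tacr1, with a difference of 1.29 and an adjusted p of 0.0178. That fit left out the other libraries, so it differed from the main fit by more than the pairing. It called 159 genes in all in place of 42. Tacr1 was also called without a filter on low counts (1.24, adjusted p = 0.00529) and without untraced 1 (2.11, adjusted p = 0.0257), but not with DESeq2 (adjusted p = 0.412).

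A single nucleus held 23 of the 98 Tacr1 UMIs of traced 1, and 15 were in 3 nuclei of MEP_Lmx1b_Satb1. Without the nucleus with the most Tacr1 UMIs in each group the difference was 1.10 (adjusted p = 0.207). Ventral excitatory subtypes made up 45.0% and 24.0% of the neurons of traced 1 and 2 and 9.60% and 5.69% of those of untraced 1 and 2. Tacr1 levels were also computed with every subtype set to its level in the uninjured library of experiment 2. Each subtype was weighted by its share of the neuron UMIs of a library, not of the nuclei. These levels were 63.3 and 52.5 CPM in the traced and 37.0 and 32.5 CPM in the untraced libraries. The observed levels were 1.07 and 0.972 times these values in traced 1 and 2, and 0.848 and 0.413 times in untraced 1 and 2. The part of the subtype mix in the Tacr1 difference was not tested.

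Nmur2 had the opposite sign, with 39.3 and 42.0 CPM in the traced and 52.4 and 70.5 CPM in the untraced libraries. The difference was -0.63 ± 0.29, with an unadjusted p of 0.0442 and an adjusted p of 0.601. The levels computed from the subtype shares of UMIs were 60.3 and 74.1 CPM for the traced and 58.1 and 67.6 CPM for the untraced libraries. The part of the subtype mix in the Nmur2 difference was not tested. In dorsal excitatory neurons alone, where traced 1 was the single traced library with at least 20 nuclei, Nmur2 was at 36.8 CPM in traced and at a mean of 117 CPM in untraced nuclei (-1.63 ± 0.46, adjusted p = 0.263, where 0.028% of genes were called). In DE_Reln_Nmur2 itself, traced 1 had 1 UMI in 3 nuclei and traced 2 had 6 UMIs in 1 nucleus.

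Of the other receptors, Qrfpr was also lower in both traced libraries and Oprl1 higher, so 2 of 10 were higher and 2 of 10 lower in every traced library. Over all genes tested these shares were 20.4% and 15.1%. The other 6 overlapped between the groups. Oprm1 differed by 0.05, with a 95% interval of -0.47 to 0.57.

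**Figure D5:**
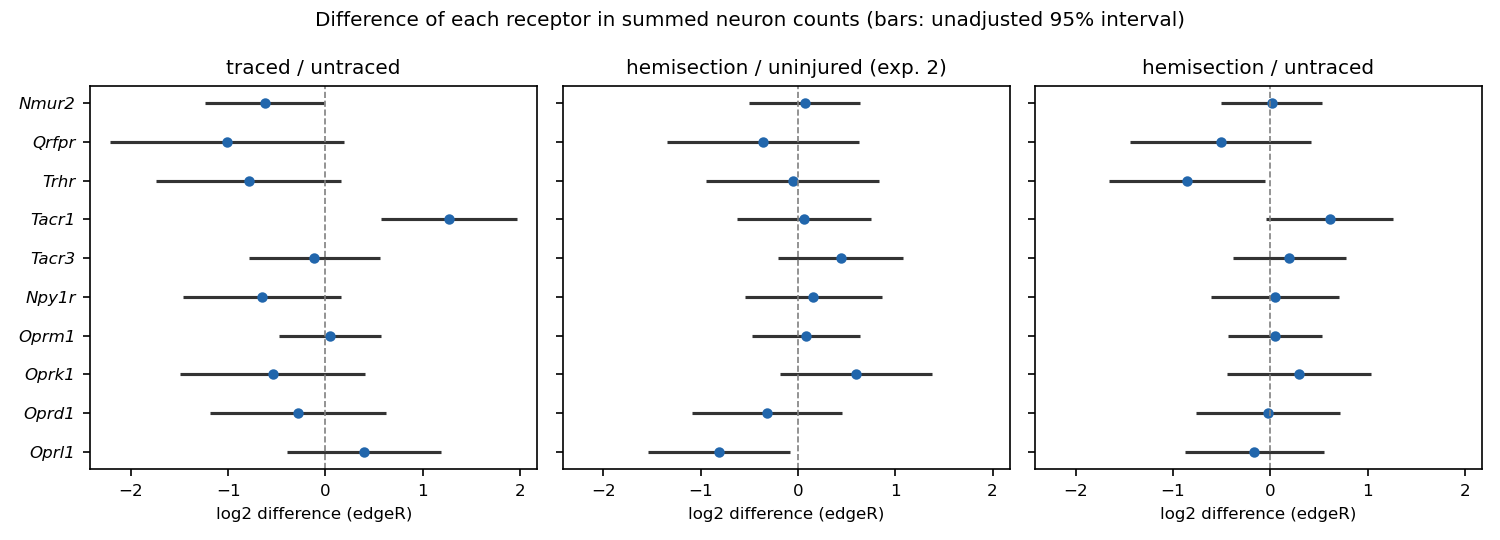
Log2 difference of each receptor (points) with its unadjusted 95% interval (bars) in summed neuron counts, for traced over untraced, hemisection over the uninjured library of experiment 2, and hemisection over untraced. The interval of Tacr1 lies above 0 in the first panel and that of Oprl1 below 0 in the second; none was called after adjustment.

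The comparison of hemisection with the uninjured library of the same experiment asked which receptors differ in a cord that recovers from injury. Oprl1 was at 14.99 and 18.2 CPM in hemisection 1 and 2 and at 30.1 CPM in the uninjured library, a difference of -0.81 ± 0.34 (unadjusted p = 0.0312, adjusted p = 0.209). Both hemisection libraries were lower, which held for 46% of all genes tested, and 5.56% of genes were called. With only the 3 libraries of these groups in the fit Oprl1 was called (-0.84, adjusted p = 0.0173), while the number of called genes rose from 645 to 2413. Against the untraced libraries, with 21.9 and 11.2 CPM, the difference was -0.17 ± 0.34 and the groups overlapped.

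Within dorsal inhibitory neurons Oprl1 differed by -1.38 ± 0.51 between hemisection and the uninjured library (adjusted p = 0.201, 2.84% of genes called). Within dorsal excitatory neurons it differed by -0.67 ± 0.45 (adjusted p = 0.649, 2.79% called). It was lower in hemisection 1 than in the uninjured library in 13 of the 15 subtypes that both held with 20 nuclei, and 19.3% of 10050 genes were lower in as many. Oligodendrocytes of the uninjured library also held Oprl1, at 9.45 CPM, whereas those of the untraced and hemisection libraries had 0 to 1.63 CPM. Oligodendrocyte markers were highest in the neurons of that library too, and the part of such RNA in the Oprl1 difference was not tested.

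The other 9 receptors differed by -0.35 to 0.60 between hemisection and the uninjured library. Oprk1 had the largest positive value, 0.60 (95% interval -0.18 to 1.38), with 20.3 and 21.03 CPM in hemisection 1 and 2 and 14.6 CPM without injury. Of all 10, Tacr3 and Oprk1 were higher in both hemisection libraries and Oprm1, Oprd1 and Oprl1 lower, where 31% and 46% of all genes were. For Oprm1 the CPM differed little (105 and 107 against 108) and the fitted difference was positive, 0.08. Qrfpr was at 24.0 CPM in hemisection 1 and 3.82 CPM, from 4 UMIs, in hemisection 2, so the hemisection libraries lay on both sides of the 23.8 CPM of the uninjured library.

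Against the untraced libraries, where 0.19% of genes were called, the fitted difference of Trhr after hemisection was -0.86 ± 0.38 (unadjusted p = 0.0383, adjusted p = 1). Its values were 23.7 and 13.4 CPM after hemisection and 51.3 and 15.7 CPM in untraced 1 and 2, so the groups overlapped. Untraced 1 stood apart: without it the difference was 0.35, and without untraced 2 Trhr was called both here (-1.26, adjusted p = 0.0423) and between the uninjured library and the untraced ones (-1.24, adjusted p = 0.0322). With untraced 2 in place, the latter difference, between 2 sets of uninjured neurons, was -0.80 ± 0.42 (adjusted p = 0.404, 2.58% of genes called). These comparisons share the untraced libraries.

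The regenerating library was compared with the traced ones. It held 17 UMIs of Oprm1 in its 238 neurons, or 126 CPM (73.4 to 202), against 121 and 93.0 CPM in the traced libraries. Oprl1 was at 59.3 CPM from 8 UMIs, 4 of them in 1 nucleus, against 24.8 and 24.0 CPM (1.23 ± 0.64, adjusted p = 0.38). Oprk1 had 0 UMIs. A count of 0 there allows 22.2 CPM (3 UMIs), above the 8.95 and 20.99 CPM of the traced libraries, so a lower level was not detectable at this depth. Each of the remaining 7 receptors rested on 1 to 5 UMIs. With 1 library in the group, its spread was assumed to equal that of the replicated groups, and 0.276% of genes were called.

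The partners of these receptors were described from lists of ligands, other neuropeptide receptors and signalling genes. Of 13 ligand genes, 7 were measured deeply enough to test. Traced neurons had less Nmu (4.72 against 37.4 CPM, -3.26 ± 0.44, adjusted p = 0.00409) and less Npy (-2.37 ± 0.46, adjusted p = 0.0406) than untraced ones, and 0 of 7 were higher. Their median difference was -0.77, against -0.0044 over all genes. In this comparison 0.362% of all genes were called. DI_Npy, with the highest Npy level in the uninjured library, made up 0 of 80 and 0 of 25 neurons in traced 1 and 2. In untraced 1 and 2 it made up 10 of 354 and 5 of 123. DE_Tac2_Nmu made up 2 of 80 and 2 of 25 traced neurons, and 22 of 354 and 6 of 123 untraced ones. The part of the subtype mix in the Nmu and Npy differences was not tested.

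After hemisection, Tac1 (-2.26 ± 0.30, adjusted p = 0.00037), Npy (-1.90 ± 0.31, adjusted p = 0.00154) and Tac2 (-2.16 ± 0.43, adjusted p = 0.00671) were lower than in the uninjured library of experiment 2. The mean of Tac1, for example, was 26.0 CPM in the hemisection libraries, against 127 CPM without injury. Over all genes 5.56% were called in this comparison. In the untraced libraries Tac1 was at 34.4 CPM, and 0 of 7 ligands were called between hemisection and untraced neurons, where 0.19% of all genes were. Tac1 (1.73 ± 0.30, adjusted p = 0.00555) and Npy (1.43 ± 0.30, adjusted p = 0.0205) were instead higher in the uninjured library of experiment 2 than in the untraced libraries. The regenerating library had more Nmu than the traced ones (81.5 against 4.72 CPM, 4.31 ± 0.67, adjusted p = 0.0103), where 0.276% of genes were called. This rests on 1 library with 135012 UMIs in its neurons. DE_Tac2_Nmu, the subtype with the highest Nmu level, made up 25 of its 238 neurons, against 2 of 80 and 2 of 25 in traced 1 and 2. The part of the subtype mix in the Nmu difference was not tested.

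Among 44 other neuropeptide receptors, 42 were in the matrix, 19 were tested and 0 were called in any of the 5 comparisons. Those with the smallest p were Rxfp2 and Hcrtr1 between traced and untraced neurons (-2.39 and 1.49, adjusted p = 0.531 and 0.663) and Sstr2 and Ntsr2 between hemisection and uninjured neurons (-1.57 and -2.05, adjusted p = 0.0892 and 0.163). Of the signalling genes tested, 0 of 17 for Gi/o coupling, 0 of 10 for Gq/11 coupling and 0 of 7 receptor kinases and arrestins were called in those comparisons. At an unadjusted p under 0.05, hemisection against uninjured neurons gave 3 of 19 other receptors and 2 of 17 Gi/o genes, where 19.1% of all genes passed.

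Finally, genes of similar profile were sought for each receptor by Pearson's correlation of log2(CPM + 10) over the 24 subtypes of the uninjured library. The 3 closest of 9314 genes were kept per receptor. The subtypes share 1 library and the correlations are descriptions. Over the 15 subtypes of hemisection 1, 10 of the 30 pairs had a correlation above 0.5. The closest pairs there were Tacr1 with Nrp2 (0.70 in the uninjured library and 0.83 in hemisection 1), a semaphorin receptor, Tacr3 with Fam118a (0.80 and 0.83), Tacr1 with Pard3b (0.71 and 0.78), a polarity gene, and Npy1r with Nav3 (0.80 and 0.77), a neuron navigator gene. Nmur2 was closest to Phtf2 (0.71 and 0.59), and Oprm1 to Ipcef1 (0.71 and 0.60). The next genes for Nmur2, Kndc1 (0.67 and 0.088) and Zfp948 (0.66 and -0.38), had low values in hemisection 1. The genes closest to Qrfpr, Trhr, Oprd1 and Oprl1 in the uninjured library had correlations between -0.33 and 0.48 in hemisection 1. The 15 subtypes lack DE_Reln_Trhr (18 nuclei in hemisection 1), the top of Trhr, Tacr3, Npy1r, Oprm1 and Oprl1 in the uninjured library. They also lack DI_Npy (11 nuclei), the top of Qrfpr. For these receptors a low value cannot show that a likeness failed to repeat, because the peak was left out. This does not hold for Nmur2 and Oprd1, whose tops in the uninjured library, DE_Reln_Nmur2 and VIL_V1_Sp8, were among the 15 subtypes.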

How the data were processed

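The authors deposited a matrix of raw UMI counts per gene and nucleus, with other tables that hold nucleus names, gene symbols, libraries and annotated classes and subtypes. The tools Cell Ranger 4.0.0 and Seurat 3 and the builds mm10 and GRCm38 are named per the submitters' processing notes. The files were made with filters, doublet removal, a strand setting and an annotation method not given in the sources used here. In the present work no nucleus was removed and no doublet caller was run. Gene positions are from GENCODE M21 (GRCm38).

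CPM is the summed UMIs of a gene per 1000000 UMIs of the same nuclei. Counts summed over the neurons of a library were tested with edgeR 4.0.16 (R 4.3.3, TMM, filterByExpr with a minimum count of 10 and total of 15, quasi-likelihood test). All 8 libraries entered 1 fit with 3 residual degrees of freedom, and p-values were adjusted over all tested genes with Benjamini-Hochberg. Adjusted p-values without another tool named are from this test. Fits within a family or class used libraries with at least 20 nuclei. The tests were checked on simulated counts. Thinning used seed 1. Poisson and Clopper-Pearson limits are at 95%, and a count of 0 was read as at most 3 UMIs.

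All 10 receptors were named in every comparison. Results of some single subtypes are not reported here, though the nuclei of these subtypes entered every sum. Of the other lists, called genes or else the 2 with the smallest p were named. The members, lists and tests were chosen with earlier results of these data known. The microglia fit and the levels from the subtype mix were added after levels had been seen. Alternatives were DESeq2 1.42.0, its size factors, no filter, other sets of libraries, each replicate left out, a replicate block, no top nucleus, other minimums of nuclei and another thinning depth.

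Traced and untraced libraries with the same number were read as the same mouse, from the titles and shared prefixes of the deposited nucleus names. The difference between the 2 replicates in traced neurons correlated with that in untraced neurons over 7825 genes (Pearson's r = 0.206).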

Additional observations from a re-analysis of the deposited data

How the results depend on the processing

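Of 501 recomputed receptor values, 441 kept their direction and side of the threshold, 46 changed direction, 9 passed the threshold where the reported value did not, and 5, all of Oprm1 in microglia, no longer passed it. The cause of these changes was not tested. Libraries of 25 to 123 neurons and the shallow regenerating library limit most receptor differences to wide intervals, and 1 or 2 libraries per group limit every test.

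One receptor was called in place of 0 between traced and untraced neurons with no filter (234 genes called in all). The replicate block, which pairs libraries of the same number and leaves out all but the traced and untraced ones, also called 1 receptor (159 genes). The block changed no other receptor call. With only the libraries of the groups compared, 1 receptor and 2413 genes were called between hemisection and uninjured neurons of experiment 2, and 88 genes between regenerating and traced neurons, against 645 and 32. With no filter, the genes called were 1101 (hemisection against uninjured), 84 (hemisection against untraced), 185 (regenerating against traced), 615 (uninjured against untraced), and 557 and 450 within dorsal excitatory and inhibitory neurons. With DESeq2, 136, 8 and 64 genes were called for hemisection against uninjured, hemisection against untraced and uninjured against untraced neurons. The top subtype held for 6 of 10 receptors with 10 nuclei as the minimum and for 5 with summed counts.

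Small log2 differences changed sign with DESeq2's size factors: Nmur2 (-5.5e-05) and Tacr1 (-0.0028) for hemisection against uninjured, and Nmur2 (0.014) and Oprm1 (0.032) for uninjured against untraced neurons. With DESeq2 they did so for Tacr1 (-0.031) in the first, Npy1r (0.0060) and Oprm1 (0.054) in the second, and Oprd1 (0.071) between hemisection and untraced neurons. With no filter, Oprd1 was at -0.020 between regenerating and traced neurons.

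Leaving out 1 library at a time gave 0 to 1 called receptors for traced against untraced, hemisection against untraced and uninjured against untraced neurons. The genes called ran from 19 to 93, 9 to 104 and 314 to 529 in those comparisons, from 171 to 327 for hemisection against uninjured, and from 0 to 28 for regenerating against traced. Within dorsal excitatory neurons they ran from 97 to 148, and within dorsal inhibitory ones from 165 to 239. For traced against untraced, the log2 difference ran from -0.28 to 0.49 for Oprm1, -0.94 to 0.19 for Oprk1, -1.23 to 0.39 for Trhr, -0.73 to 0.23 for Tacr3 and -0.55 to 0.40 for Oprd1. For hemisection against untraced it ran from -0.29 to 0.26 for Nmur2, -1.37 to 0.35 for Trhr, -0.29 to 0.67 for Oprd1, -0.42 to 0.46 for Oprl1, -0.18 to 0.51 for Npy1r, -0.21 to 0.48 for Oprm1 and -0.052 to 0.54 for Tacr3. For hemisection against uninjured the ranges were -0.19 to 0.20 for Tacr1, -0.11 to 0.31 for Nmur2, -2.48 to 0.10 for Qrfpr and -0.60 to 0.16 for Trhr. For uninjured against untraced they were -0.29 to 0.17 for Nmur2, -0.29 to 0.15 for Qrfpr, -1.24 to 0.43 for Trhr, -0.42 to 0.14 for Tacr3, -0.33 to 0.41 for Npy1r and -0.29 to 0.45 for Oprm1. For regenerating against traced, Oprd1 ran from -0.23 to 0.085 and Oprm1 from -0.031 to 0.49. Within dorsal excitatory neurons Trhr ran from -0.42 to 0.16, Tacr1 from -0.025 to 0.55, Tacr3 from -0.38 to 0.31 and Npy1r from -0.26 to 0.28. Within dorsal inhibitory neurons Qrfpr ran from -1.68 to 0.36 and Tacr3 from -1.57 to 0.24, and Npy1r was at 0.24 without hemisection 2, and not tested without hemisection 1.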
